A study of Mus musculus with 45 samples.

Results

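The interferon regulatory factors (IRFs) Irf1, Irf2, Irf3, Irf4, Irf5, Irf7, Irf8 and Irf9 were taken by name from an expression table of mouse bone marrow-derived macrophages. These 8 genes are among 24421 genes in the table, and all 8 passed the filter on low values that left 11380 genes for testing. The cells came from C57BL/6 bone marrow, were differentiated in medium conditioned by L929 cells and were used on day 7. Polyadenylated RNA was sequenced from 7 groups of 3 libraries: untreated cells, cells given IL-4 (10 ng/ml), cells given IFN-γ (100 ng/ml) and cells given both cytokines at those doses, the treated groups at 2 h and at 4 h. No group carried a genetic change or a drug. Another 24 samples of the series were not analysed here. The labels do not say whether the replicates came from separate animals, so the p-values measure the spread between these libraries, which may be technical.

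IRFs are transcription factors that share an N-terminal DNA-binding domain rich in tryptophans and bind GAAA repeats, the core of the interferon-stimulated response element. IFN-γ acts through the kinases JAK1 and JAK2 and on gamma-activated sequences (GAS) in DNA, while IL-4 acts through STAT6, which prefers a similar palindrome with a longer spacer. In macrophages IRF1, IRF5 and IRF8 are known for inflammatory and antigen-presentation programmes, IRF4 for alternative activation, IRF3 and IRF7 for induction of type I interferon, and IRF9 as the DNA-binding subunit of the complex ISGF3. IRF2 binds the same elements as IRF1 and is known as its antagonist on some promoters.

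Stretches just upstream of the start sites of 4 members are shown: Irf1, Irf8 and Irf2 because they hold the motif matches found, and Irf4 as the member that rose under IL-4 at both times. They come from RefSeq, build GRCm38.p6, plus strand, and hold none of the member's own exons in GENCODE: Irf1 at chr11:53769764-53770013, Irf8 at chr8:120736108-120736357, Irf2 at chr8:46739495-46739614 and Irf4 at chr13:30748983-30749225. Capitals mark matches to GAS (TTCNNNGAA), ISRE (GAAANNGAAA) or the composite element bound by an ETS factor with IRF4 or IRF8 (EICE, GGAANNGAAA).
Irf1: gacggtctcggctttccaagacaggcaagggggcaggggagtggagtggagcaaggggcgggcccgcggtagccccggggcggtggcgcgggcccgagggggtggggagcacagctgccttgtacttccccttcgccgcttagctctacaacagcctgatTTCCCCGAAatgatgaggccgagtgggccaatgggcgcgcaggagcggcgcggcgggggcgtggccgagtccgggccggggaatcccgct
Irf8: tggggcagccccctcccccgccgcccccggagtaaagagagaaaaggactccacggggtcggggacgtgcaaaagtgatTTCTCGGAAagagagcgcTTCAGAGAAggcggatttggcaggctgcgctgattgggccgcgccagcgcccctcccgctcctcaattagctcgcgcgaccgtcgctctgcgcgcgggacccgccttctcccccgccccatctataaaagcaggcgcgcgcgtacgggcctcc
Irf2: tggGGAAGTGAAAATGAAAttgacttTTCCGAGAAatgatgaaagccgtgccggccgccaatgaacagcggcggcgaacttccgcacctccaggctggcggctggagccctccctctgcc
Irf4: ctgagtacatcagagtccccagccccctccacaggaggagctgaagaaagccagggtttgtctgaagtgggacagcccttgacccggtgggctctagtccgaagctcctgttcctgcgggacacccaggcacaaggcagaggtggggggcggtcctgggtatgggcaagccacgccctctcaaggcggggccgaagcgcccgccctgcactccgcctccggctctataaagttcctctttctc

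All 8 members matched the promoter table, with 11 windows of 250 bases between them, and both strands were searched. Irf1 held 1 GAS match, TTCCCCGAA, from 90 to 82 bases before its start. Irf8 held 2 GAS matches, TTCTCGGAA and TTCAGAGAA, at 171 to 163 and 153 to 145 bases before its first start. Irf2 held a GAS match (TTCCGAGAA), an ISRE match (GAAAATGAAA) and an EICE match (GGAAGTGAAA), the last pair overlapping each other. Across 32851 promoter windows of the same length, 7.02% held a GAS match, 2.98% an ISRE match and 2.30% an EICE match. The STAT6 palindrome TTCNNNNGAA, present in 5.85% of all windows, matched none of the members' windows, and Irf3, Irf4, Irf5, Irf7 and Irf9 matched none of the 4 motifs. Both Irf9 windows lay downstream of its GENCODE gene start, with 250 and 88 bases in its own exons. The Irf3 window had 181 bases in exons of other genes. A match is a run of letters in a window and no measure of binding.

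Values below are CPM (reads of a gene scaled to a common library total), rescaled between libraries by median ratios over genes, and are given for replicates 1, 2 and 3 in that order. Library totals ran from 28920801 to 80028327 reads, so that 1 read was worth 0.0125 to 0.0346 CPM. The ribosomal precursor Rn45s took 43.2% and 15.7% of reads in untreated replicates 2 and 3, 0.151% in untreated replicate 1 and at most 3.21% in any treated library. On the CPM scale as deposited, the median gene lay 0.10 to 0.43 above untreated cells on the log2 scale in the 6 treated groups, against -0.02 to -0.01 after rescaling, and a change given on the deposited scale includes that shift. Comparisons with untreated cells were also repeated with untreated replicate 1 as the lone control, whose spread is then assumed to equal that of the other groups. All 8 macrophage markers were measured, with summed levels between 16651.5 and 37306 CPM in every library. Lyz2 led that sum, and limma called 2 of the markers. Cd14 was lower in all 6 treated groups (log2 change from -0.48 to -1.64). Fcgr1 was lower at 4 h of IL-4 (-0.88) and higher in the 4 groups given IFN-γ (1.01 to 2.36). On the CPM scale as deposited, Cd14 was not called in the 2 h groups (limma adjusted p between 0.28 and 0.81). Nor was Fcgr1 at 4 h of IL-4 (adjusted p = 0.14). With the replicate number as a block in limma, 6 of the 8 markers were lower and 1 higher at 4 h of IL-4. Among markers of lymphocytes, the B-cell factor Pax5 was at 0 and Cd3e at or below 0.049 CPM throughout. Other lymphocyte markers passed the filter, with highest deposited values of 27.8 CPM for Cd4, 16.8 for Lck, 13.6 for Cd79b and 2.18 for Jchain. Changes are log2 differences of CPM + 1 with their standard errors from limma, 3 libraries a group, and a change was called at a Benjamini-Hochberg adjusted p under 0.05 over all genes.

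In response to IL-4, Irf4 rose at both times and Irf1 at 4 h. IFN-γ raised Irf1, Irf2, Irf7 and Irf8 by 2 h and added Irf5 by 4 h, and both cytokines together raised these 5 genes and Irf4 by 4 h in the same cultures. Against untreated cells, IL-4 gave 1 of 8 members higher at 2 h, where 5.25% of all genes tested were higher, and 2 at 4 h, where 11.4% were. IFN-γ gave 4 of 8 higher at 2 h (10.4% of all genes) and 5 of 8 at 4 h (20.6%). Both cytokines gave 6 of 8 higher at 2 h (12.4%) and 6 of 8 at 4 h (22.1%). No member was lower in any of these 6 comparisons, in which 3.38%, 10.6%, 7.5%, 18.5%, 9.85% and 20.7% of all genes were lower in the same order. The median log2 change over the 8 members was 0.28 and 0.09 under IL-4, 0.54 and 1.36 under IFN-γ and 1.11 and 1.88 under both, at 2 h and 4 h, while that over all genes lay between -0.02 and -0.01.

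**Figure D1:**
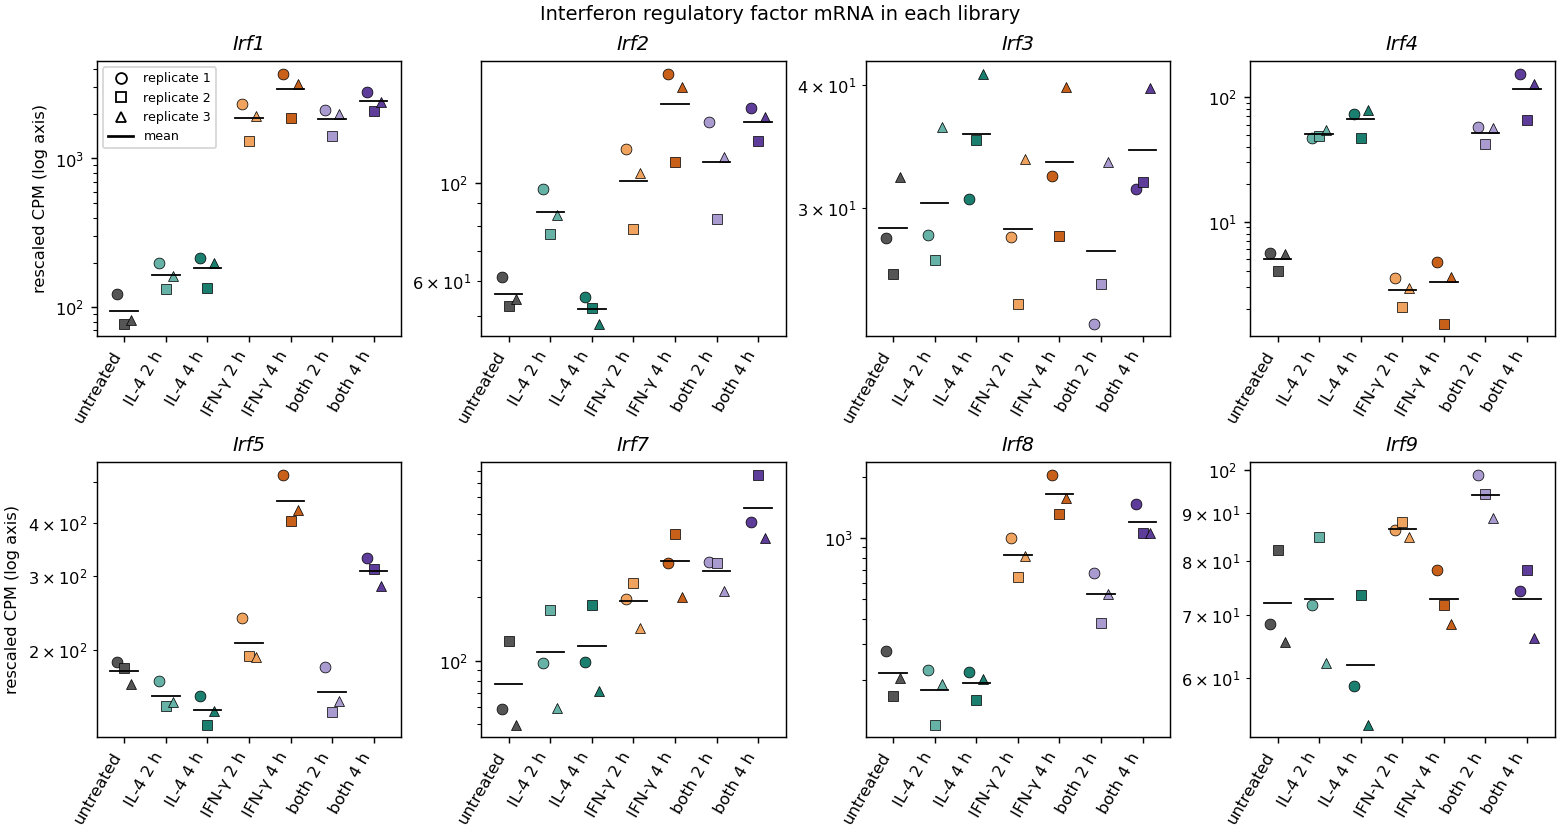
Rescaled CPM (log axis, a scale of its own in each panel) of the 8 members in each of the 21 libraries; circles, squares and triangles are replicates 1, 2 and 3 and bars are group means. Irf4 is high in the 4 groups that received IL-4, and Irf1 and Irf8 in the 4 groups that received IFN-γ.

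Irf4 was the member that followed IL-4. It stood at 5.56, 4.05 and 5.47 CPM in untreated cells, at 47.0, 49.1 and 54.9 CPM after 2 h of IL-4 and at 73.3, 46.6 and 79.5 CPM after 4 h. Every IL-4 library was above every untreated one. The rise was 3.10 ± 0.31 on the log2 scale at 2 h (limma adjusted p = 3.9e-06) and 3.46 ± 0.31 at 4 h (adjusted p = 5.4e-07), and 2.97 and 3.33 against untreated replicate 1 alone. With IFN-γ present as well, Irf4 reached 57.3, 41.8 and 56.6 CPM at 2 h and 155, 65.2 and 126 CPM at 4 h. These are rises of 3.13 ± 0.31 and 4.19 ± 0.31 over untreated cells (limma adjusted p = 9.8e-07 and 1.6e-08).

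In cells given IFN-γ without IL-4, Irf4 read 3.52, 2.05 and 2.96 CPM at 2 h and 4.73, 1.52 and 3.62 CPM at 4 h. All 3 libraries at 2 h were below all untreated ones, and the groups overlapped at 4 h. The differences of -0.66 ± 0.31 and -0.56 ± 0.31 were not called (limma adjusted p = 0.19 and 0.17). A fit that keeps the replicate number as a block (the blocked fit) called both (adjusted p = 0.0058 and 0.0092), except on the CPM scale as deposited (blocked adjusted p = 0.12 and 0.062).

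Irf1, an early interferon-response gene and an activator of antigen-presentation genes, had the largest change of the 8 members in each of the 4 groups given IFN-γ. From 122, 77.8 and 82.8 CPM in untreated cells it went to 2339, 1315 and 1940.1 CPM at 2 h and to 3716, 1869.9 and 3161 CPM at 4 h of IFN-γ. The lowest IFN-γ library was above the highest untreated library by more than an order of magnitude. The log2 rises were 4.28 ± 0.28 and 4.91 ± 0.28 (limma adjusted p = 1.7e-08 and 1.0e-09). With both cytokines Irf1 read 2116, 1418 and 1992 CPM at 2 h and 2795, 2070.0 and 2405 CPM at 4 h, rises of 4.28 ± 0.28 and 4.69 ± 0.28 (adjusted p = 9.6e-09 and 1.1e-09).

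IL-4 alone also moved Irf1, on a much smaller scale. It read 197, 133 and 164 CPM at 2 h and 216, 136 and 197 CPM at 4 h, each library above all untreated ones. The 4 h rise of 0.95 ± 0.28 was called (limma adjusted p = 0.020), and the 2 h difference of 0.81 ± 0.28 was not (adjusted p = 0.092). The 2 h difference was called in the blocked fit (limma adjusted p = 1.8e-05) and on the deposited CPM scale (adjusted p = 0.0077). The 4 h call was lost without untreated replicate 2 or 3 or IL-4 replicate 1 or 3 (adjusted p between 0.070 and 0.088) and against untreated replicate 1 alone (0.55, adjusted p = 0.46).

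Irf8, a myeloid lineage factor and partner of PU.1, changed in the groups given IFN-γ. Untreated cells had 278, 167 and 205 CPM, and IFN-γ brought 1003, 647 and 816 CPM at 2 h and 2057, 1312 and 1571 CPM at 4 h. No IFN-γ library overlapped an untreated one, and the rises were 1.93 ± 0.27 and 2.93 ± 0.27 (limma adjusted p = 5.8e-05 and 2.6e-07). With both cytokines the libraries read 673, 381 and 533 CPM at 2 h and 1471, 1057 and 1067 CPM at 4 h, rises of 1.28 ± 0.27 and 2.48 ± 0.27 (adjusted p = 0.0019 and 1.3e-06). Against untreated replicate 1 alone, the 2 h rise under both was 0.89 and not called (adjusted p = 0.15). Under IL-4 Irf8 read 224, 121 and 192 CPM at 2 h and 220.3, 159 and 203 CPM at 4 h, within the range of the untreated libraries except for replicate 2. The 2 h difference of -0.29 ± 0.27 (limma adjusted p = 0.73) was called in the blocked fit (adjusted p = 0.029), and on the deposited CPM scale it had the opposite sign, 0.16.

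Irf5, a mediator of Toll-like receptor signals and of inflammatory cytokine genes, was raised late. It read 187, 181 and 166 CPM in untreated cells, 238, 193 and 192 CPM after 2 h of IFN-γ and 521, 405 and 429.9 CPM after 4 h. The 4 h libraries were all above the others, with a rise of 1.33 ± 0.12 (limma adjusted p = 2.1e-07), against 0.22 ± 0.12 at 2 h (adjusted p = 0.27; 0.016 in the blocked fit). Under both cytokines Irf5 read 182, 142 and 151 CPM at 2 h and 329, 312 and 283 CPM at 4 h. The 2 h libraries overlapped the untreated ones (-0.17 ± 0.12, adjusted p = 0.39; blocked 0.046; 0.17 on the deposited CPM scale, with adjusted p = 0.51), and the 4 h rise was 0.79 ± 0.12 (adjusted p = 5.1e-05). IL-4 alone gave 169, 147 and 151 CPM at 2 h and 155, 133 and 143 CPM at 4 h. The 2 h difference was -0.19 ± 0.12 (limma adjusted p = 0.48; blocked 0.042) and turned to 0.26 on the deposited CPM scale. At 4 h these were all below the untreated libraries, a difference of -0.31 ± 0.12 that was called with the block (limma adjusted p = 0.0012), was not called without it (adjusted p = 0.082) and had the opposite sign, 0.19, on the deposited CPM scale. Exons of Irf5 share 411 bases, 14.2% of its exon length, with exons of Tnpo3 on the opposite strand, and strand use in the counting is not given in the sources used here.

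Irf2 moved under IFN-γ by less than Irf1. From 61.2, 52.6 and 54.8 CPM in untreated cells it went to 119, 78.5 and 105 CPM at 2 h and 177, 111 and 165 CPM at 4 h. Every IFN-γ library lay above the untreated ones, and the rises were 0.82 ± 0.19 and 1.38 ± 0.19 (limma adjusted p = 0.0054 and 2.1e-05). Both cytokines gave 138, 83.0 and 114 CPM at 2 h and 148, 125 and 141 CPM at 4 h, rises of 0.95 ± 0.19 and 1.28 ± 0.19 (adjusted p = 0.0013 and 4.1e-05). Against untreated replicate 1 alone, both 2 h rises were smaller and not called (0.69 and 0.83, adjusted p = 0.16 and 0.073).

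Under IL-4 alone the Irf2 level was higher at 2 h than at 4 h in each of the 3 replicates. It read 96.7, 76.8 and 84.7 CPM at 2 h and 55.3, 52.2 and 48.1 CPM at 4 h. The 2 h libraries lay above all untreated and all 4 h libraries. The 2 h difference from untreated cells, 0.60 ± 0.19, was not called by limma (adjusted p = 0.063) but was by edgeR on recovered reads (adjusted p = 0.045), on the deposited CPM scale (adjusted p = 0.0029) and with the replicate block (adjusted p = 5.2e-04). Between 4 h and 2 h of IL-4 the difference was -0.72 ± 0.19, with limma adjusted p = 0.057 and, with the block, 2.4e-04.

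Irf7, an inducible amplifier of type I interferon production, differed more between replicates than any other member in untreated cells. It read 59.2, 124 and 49.6 CPM there, 197, 233 and 144 CPM at 2 h of IFN-γ and 292, 402 and 202 CPM at 4 h. No IFN-γ library overlapped an untreated one. The 4 h rise of 1.99 ± 0.43 was called (limma adjusted p = 0.0014). The 2 h rise of 1.38 ± 0.43 was called by limma (adjusted p = 0.032) and not by edgeR (adjusted p = 0.052), nor without untreated replicate 1 or 3 or IFN-γ replicate 1 or 2 (limma adjusted p between 0.084 and 0.15), nor against untreated replicate 1 alone (1.65, adjusted p = 0.091).

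Irf7 was also raised by both cytokines. The libraries read 295, 289.6 and 215 CPM at 2 h and 455, 765 and 381 CPM at 4 h, all above the untreated ones. The rises were 1.87 ± 0.43 and 2.82 ± 0.43 (limma adjusted p = 0.0037 and 4.8e-05). IL-4 alone gave 97.1, 174 and 59.3 CPM at 2 h and 98.7, 183 and 71.6 CPM at 4 h, overlapping the untreated libraries although each was above the untreated library of its own number. Those differences, 0.48 ± 0.43 and 0.60 ± 0.43, were called with the block (limma adjusted p = 0.044 and 0.0069) and not without it (0.71 and 0.37). On the deposited CPM scale the 4 h difference was called without the block as well (adjusted p = 0.047).

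Irf9 and Irf3 had the smallest changes of the 8 members at 4 h in both groups given IFN-γ. Irf9 read 68.5, 82.0 and 65.5 CPM in untreated cells, 86.3, 88.0 and 84.9 CPM at 2 h of IFN-γ and 98.8, 94.2 and 88.8 CPM at 2 h of both. Both 2 h groups lay above all untreated libraries. The rise under both, 0.38 ± 0.13, was called (limma adjusted p = 0.036), and that under IFN-γ, 0.27 ± 0.13, was not (adjusted p = 0.18). The latter was called with the block (adjusted p = 0.019), on the deposited CPM scale (adjusted p = 0.034) and without replicate 2 in all groups (adjusted p = 0.046). The call under both was lost without untreated replicate 1 or 3 or treated replicate 1 or 2 (adjusted p between 0.082 and 0.15) and against untreated replicate 1 alone (0.45, adjusted p = 0.12). At 4 h Irf9 was back near the untreated level, with 78.1, 71.7 and 68.4 CPM under IFN-γ and 74.3, 78.2 and 66.1 CPM under both. IL-4 alone gave 71.6, 84.8 and 62.2 CPM at 2 h and 58.8, 73.5 and 53.4 CPM at 4 h, the latter a difference of -0.22 ± 0.13 (adjusted p = 0.24; blocked 0.039) that turned to 0.27 on the deposited CPM scale. Irf9 shares 123 exon bases with Rnf31 on the same strand.

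Irf3, the constitutive factor that sensor kinases activate by phosphorylation, lay between 22.9 and 41.0 CPM in all 21 libraries. Untreated cells had 28.0, 25.7 and 32.2 CPM. Its 6 differences from untreated cells ran from -0.09 ± 0.18 under both at 2 h to 0.30 ± 0.18 under IL-4 at 4 h (30.6, 35.2 and 41.0 CPM), and none was called. On the deposited CPM scale the 4 h difference under IL-4 was called (0.78, adjusted p = 0.016). In the blocked fit, the 4 h differences under IL-4, IFN-γ and both (0.30, 0.21 and 0.25) were called, with limma adjusted p = 0.0039, 0.027 and 0.0085. With the block on the deposited scale, that under IFN-γ was not (adjusted p = 0.18).

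**Figure D2:**
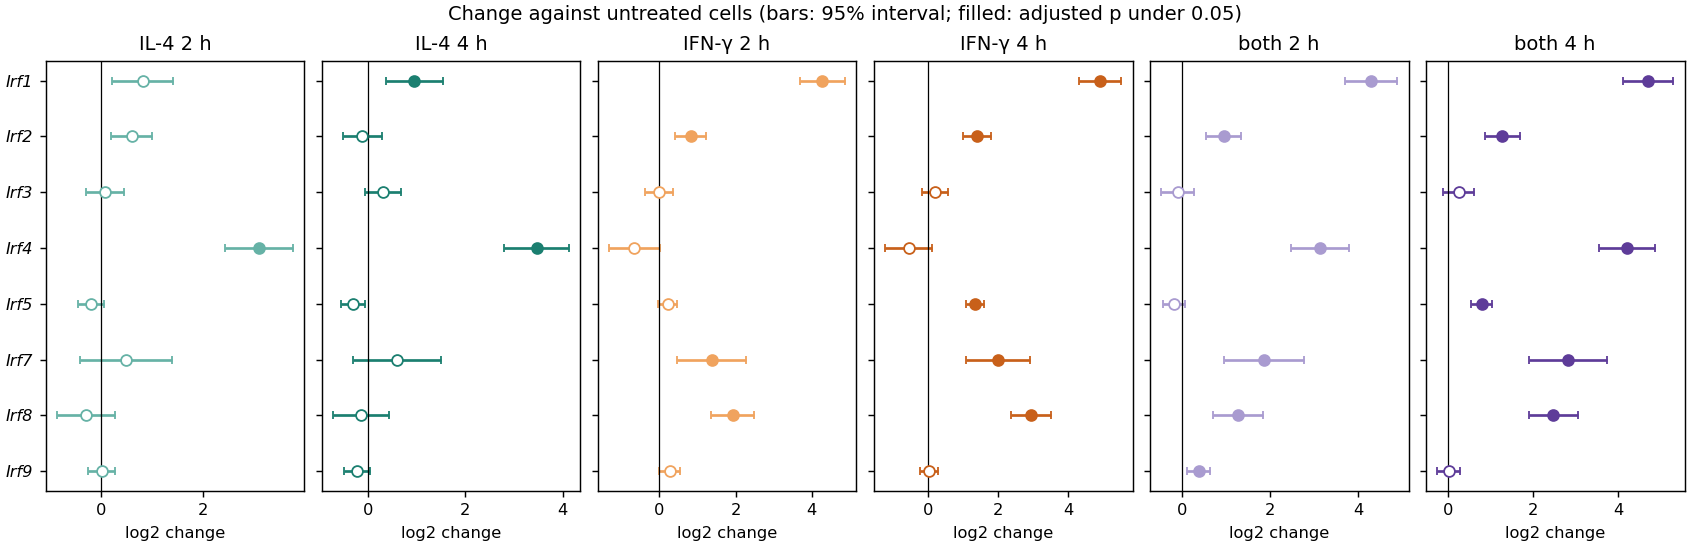
Log2 change of each member against untreated cells in the 6 treated groups, with a horizontal axis of its own in each panel; bars are 95% intervals from limma and filled points have adjusted p under 0.05. Irf4 is far from 0 in each panel with IL-4, Irf1 and Irf8 in each panel with IFN-γ, and Irf3 has no filled point.

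Levels of different members were compared per kb of merged exons, so that a long message does not count for more. The summed level of the 8 members was 167 ± 15.3 rescaled CPM per kb (SD, n = 3) in untreated cells, 194 ± 14.6 and 197 ± 9.2 under IL-4 at 2 h and 4 h, 746 ± 160 and 1246 ± 297 under IFN-γ, and 714 ± 123 and 1092 ± 110 under both. Irf5 led in untreated cells with 36.8 ± 1.2% of the sum, followed by Irf8 with 18.4 ± 4.0% and Irf1 with 14.2 ± 2.7%. Only Irf5 over Irf8, Irf9 over Irf3 and Irf2 over Irf4 were neighbours without overlapping libraries in that order, which ran Irf5, Irf8, Irf1, Irf7, Irf9, Irf3, Irf2, Irf4.

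Under IFN-γ, Irf1 alone made up 62.2 ± 4.9% of the sum at 2 h and 58.0 ± 6.9% at 4 h, and with both cytokines 64.6 ± 3.2% and 55.7 ± 4.7%. Irf8 came next in all 4 of these groups, with shares between 10.4% and 18.8%. Irf5 followed Irf8 under IFN-γ and Irf7 followed it under both, where neither Irf8 and Irf7 nor Irf7 and Irf5 were separated beyond their libraries' spread. Within libraries of both, Irf7 was above Irf5 in 3 of 3 and Irf8 above Irf7 in 2 of 3 at each time. Irf4 was last in untreated cells with 0.62 ± 0.13% and last under IFN-γ with 0.077% and 0.051%, and it held 5.3 ± 0.8% and 6.9 ± 1.8% under IL-4 and 1.5 ± 0.1% and 2.1 ± 0.7% under both. Under IL-4, Irf5 was ahead of Irf1 per kb of merged exons (27.6 ± 1.1% against 21.4 ± 3.3% at 2 h and 25.1 ± 1.1% against 23.3 ± 4.8% at 4 h), although at 4 h their libraries overlapped and Irf5 was the higher in 1 of 3. Per kb of the longest annotated transcript Irf1 was ahead of Irf5.

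**Figure D3:**
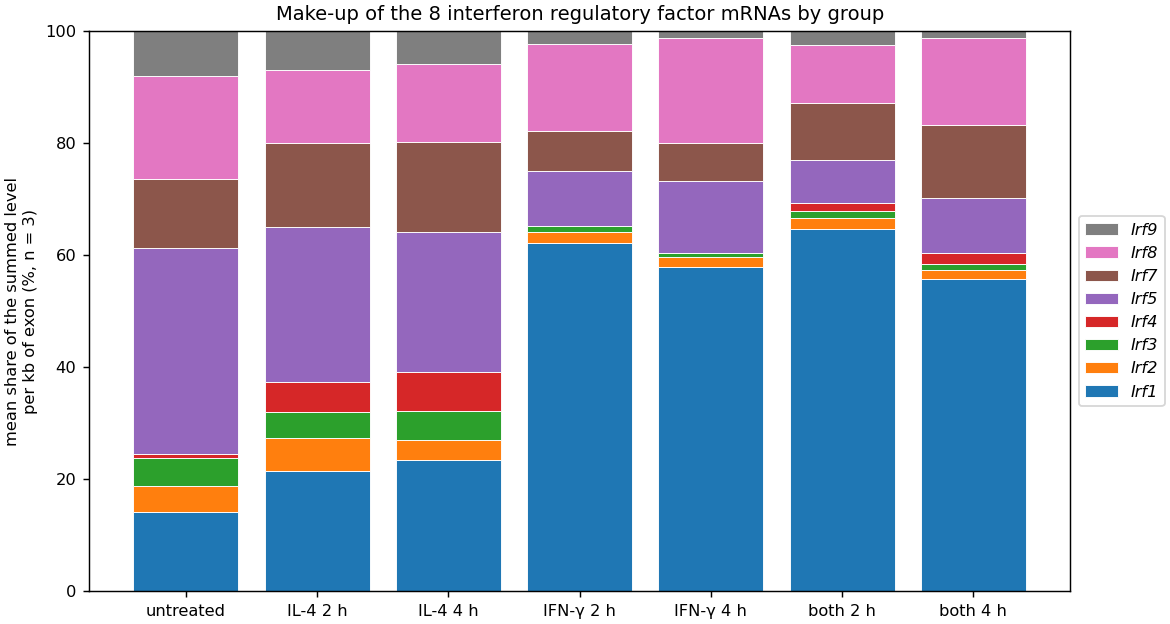
Mean share of each member in the summed level per kb of exon (percent, mean of 3 libraries) in the 7 groups. Irf5 has the largest segment in untreated and IL-4-treated cells, and Irf1 fills 55.7% to 64.6% of each bar with IFN-γ.

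The combination was set against each cytokine alone to see which members depended on which signal. Compared with IL-4 alone, both cytokines gave 3 of 8 members higher at 2 h, where 8.76% of all genes were (Irf1, Irf7 and Irf8), and 5 of 8 at 4 h, where 15.9% were (Irf1, Irf2, Irf5, Irf7 and Irf8). The largest of these differences was that of Irf1, 3.47 ± 0.28 at 2 h and 3.74 ± 0.28 at 4 h (limma adjusted p = 2.7e-07 and 3.4e-08). The 2 h call of Irf7 (1.39 ± 0.43, adjusted p = 0.037) was lost on the deposited scale (adjusted p = 0.069), in edgeR (0.067) and without any 1 of 5 libraries, IL-4 replicates 1 and 3 and all 3 of both (adjusted p between 0.051 and 0.20). The blocked fit had 5 members higher at 2 h, Irf2 (0.35, adjusted p = 0.021) and Irf9 (0.37, adjusted p = 0.0022) being added. It called 3777 of all 11380 genes there, in either direction. At 4 h the block added Irf9 (0.24, adjusted p = 0.022; -0.02 on the deposited CPM scale) and Irf4, and it called 6377 of all 11380 genes in either direction.

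Irf4 under both at 2 h differed from IL-4 alone by 0.03 ± 0.31, with a 95% interval from -0.63 to 0.69. At 4 h it was 0.73 ± 0.31 higher, which was not called (limma adjusted p = 0.087). It was called with the block (adjusted p = 0.0016), without replicate 2 of both (1.10, adjusted p = 0.012) and without replicate 2 in all groups (0.86, adjusted p = 8.4e-04). Replicate 2 of both at 4 h had 65.2 CPM, below IL-4 replicates 1 and 3, and the other two stood above all IL-4 libraries.

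Compared with IFN-γ alone, both cytokines gave 1 of 8 members higher at 2 h (2.23% of all genes higher) and 1 higher and 1 lower at 4 h (5.93% of all genes in each direction). The higher one was Irf4, by 3.79 ± 0.31 and 4.75 ± 0.31 (limma adjusted p = 1.1e-06 and 3.0e-08). The lower one was Irf5 at 4 h, by -0.55 ± 0.12 (adjusted p = 0.0053), with no overlap between 329, 312 and 283 CPM under both and 521, 405 and 429.9 CPM under IFN-γ. On the CPM scale as deposited that difference was -0.45 and not called (adjusted p = 0.19).

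Irf1 did not differ detectably between both cytokines and IFN-γ alone. The differences were 0.00 ± 0.28 at 2 h, with a 95% interval from -0.59 to 0.59, and -0.22 ± 0.28 at 4 h, with one from -0.81 to 0.37. Irf8 was lower under both by -0.65 ± 0.27 at 2 h (interval -1.22 to -0.08) and -0.45 ± 0.27 at 4 h (-1.02 to 0.12), not called by limma (adjusted p = 0.37 and 0.38). Blocked by replicate number, Irf8 was called at both times (adjusted p = 1.1e-04 and 0.0012), as were Irf5 at 2 h (-0.39, adjusted p = 6.5e-04) and Irf7 at 4 h (0.83, adjusted p = 9.6e-04). The block thus raised the calls from 1 to 3 members at 2 h and from 2 to 4 at 4 h. Over all 11380 genes it raised the calls from 343 to 1179 at 2 h and from 1350 to 3705 at 4 h. On the deposited scale with the block, Irf8 was not called (adjusted p = 0.053 and 0.32), nor was Irf5 (0.48 and 0.099), which left 1 member at 2 h and 2 at 4 h.

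**Figure D4:**
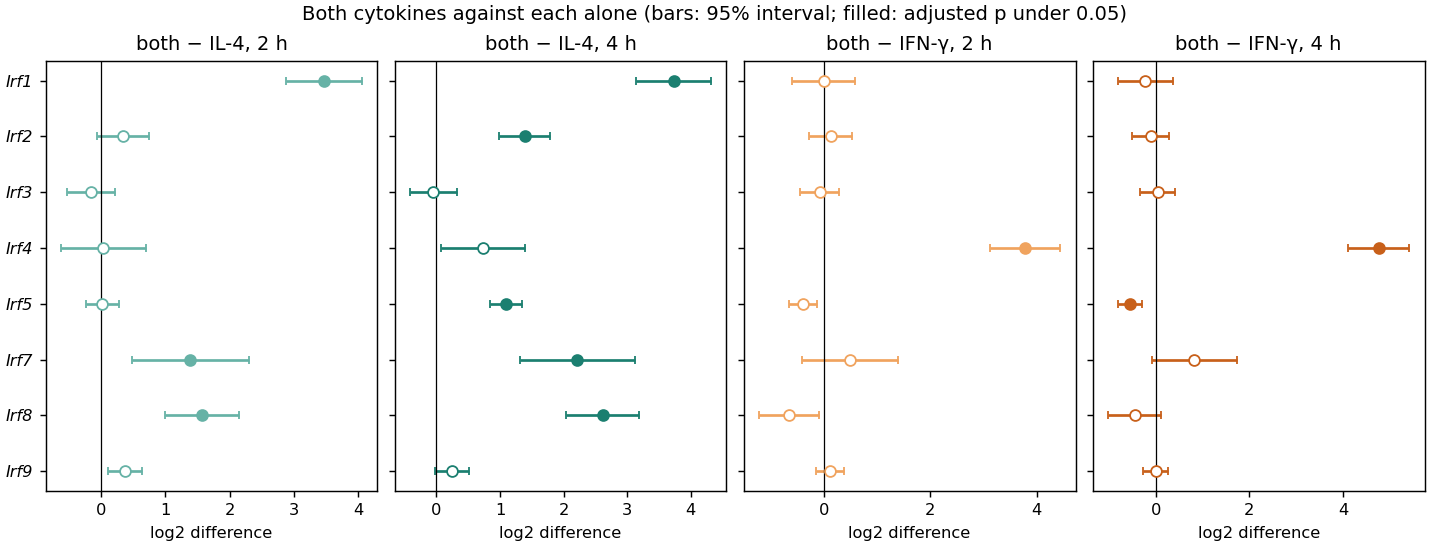
Log2 difference of each member between both cytokines and IL-4 alone (first 2 panels) or IFN-γ alone (last 2 panels) at 2 h and 4 h, with a horizontal axis of its own in each panel; bars are 95% intervals from limma and filled points have adjusted p under 0.05. Against IL-4 the filled points include Irf1, Irf7 and Irf8 at both times, and against IFN-γ they are Irf4, at both times, and Irf5 at 4 h.

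Whether the combined effect departed from the sum of the single effects on the log2 scale was tested as an interaction. No member was called at 2 h or 4 h by limma, where 0.369% and 1.56% of all genes were called, and no member had an unadjusted p under 0.05 at 2 h. At 4 h the interaction was -1.17 ± 0.39 for Irf1 and 1.30 ± 0.44 for Irf4 (limma adjusted p = 0.20 for each), the members with an unadjusted p under 0.05, and edgeR on recovered reads called none at either time. The blocked fit called both (adjusted p = 7.6e-05 and 0.0018), and Irf1 was also called at 2 h (-0.81, adjusted p = 0.0048). Without IFN-γ replicate 2 at 4 h, Irf1 was called without the block too (-1.46, adjusted p = 0.040). Against untreated replicate 1 alone the 4 h values were -0.77 and 1.43 (adjusted p = 0.73 and 0.43).

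Between 2 h and 4 h no member changed under IL-4 by limma, where 2.79% of all genes did. Unadjusted, Irf2 had p under 0.05 there, and edgeR called it (-0.72, adjusted p = 0.045). Under IFN-γ 3 of 8 members were higher at 4 h than at 2 h, where 9.8% of all genes were, namely Irf5 (1.12 ± 0.12, limma adjusted p = 1.0e-05), Irf8 (1.00 ± 0.27, adjusted p = 0.016) and Irf2 (0.57 ± 0.19, adjusted p = 0.049). Under both, 3 of 8 were higher, where 9.48% of all genes were, namely Irf8 (1.20 ± 0.27, adjusted p = 0.0048), Irf4 (1.06 ± 0.31, adjusted p = 0.025) and Irf5 (0.96 ± 0.12, adjusted p = 3.5e-05). The Irf2 and Irf8 calls under IFN-γ were lost on the deposited scale (adjusted p = 0.30 and 0.11) and without IFN-γ replicate 2 at 2 h or replicate 1 at 4 h, which left 1 call. That of Irf2 was also lost without IFN-γ replicate 3 at 2 h or at 4 h (limma adjusted p = 0.088 and 0.16). The Irf4 call was lost without replicate 2 of both at 2 h or replicate 1 or 3 at 4 h (adjusted p between 0.088 and 0.12) and on the deposited scale (adjusted p = 0.062).

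Of all 11380 genes tested, the block called 2282 between 2 h and 4 h of IL-4, 5170 under IFN-γ and 5355 under both. With the block, 2 members were called under IL-4 (Irf2 lower and Irf3 higher), 7 under IFN-γ and 8 under both. Those 7 were all but Irf4, and Irf9 was the 1 member that was lower at 4 h in each, by -0.25 under IFN-γ and -0.36 under both (limma adjusted p = 0.024 and 0.002 with the block). Irf1 at 4 h was 0.63 higher than at 2 h under IFN-γ and 0.41 higher under both (blocked adjusted p = 1.5e-04 and 0.0049, against 0.14 and 0.36 without the block). With the block on the deposited CPM scale, Irf5 and Irf8 were called under IFN-γ and Irf4, Irf5, Irf7 and Irf8 under both, while Irf1 (adjusted p = 0.098 and 0.32), Irf3 (0.92 and 0.46) and Irf9 (0.075 and 0.053) were not.

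Set directly against each other at 2 h, IL-4 gave 1 member higher than IFN-γ (8.81% of all genes higher) and 3 lower (10.5% lower). At 4 h it gave 1 higher (20.2%) and 5 lower (21.7%). The higher member was Irf4 at both times, by 3.76 ± 0.31 and 4.02 ± 0.31 (limma adjusted p = 1.6e-07 and 2.5e-08). Irf1, Irf5 and Irf8 were lower at both times, and Irf2 and Irf7 at 4 h. Irf1 differed by -3.47 ± 0.28 at 2 h and -3.96 ± 0.28 at 4 h, and Irf8 by -2.22 ± 0.27 and -3.07 ± 0.27. Irf5 was lower at 2 h by -0.41 ± 0.12 (adjusted p = 0.022), a call lost on the deposited scale (adjusted p = 0.40) and without IL-4 replicate 2 or 3 or IFN-γ replicate 1 (adjusted p between 0.074 and 0.12). Irf7 was lower at 4 h by -1.39 ± 0.43 (adjusted p = 0.015), a call lost on the deposited scale (adjusted p = 0.056) and without IL-4 replicate 3 or IFN-γ replicate 2 (adjusted p = 0.083 and 0.066). With the block, Irf7 (-0.90, adjusted p = 3.3e-04) and Irf9 (-0.25, adjusted p = 0.023) were lower at 2 h as well, and Irf9 at 4 h (-0.24, adjusted p = 0.019), although the 4 h value of Irf9 turned to 0.12 on the deposited scale. Of all 11380 genes, the block called 4442 at 2 h and 7208 at 4 h here, in either direction.

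Pairs of related members within a library show the same contrast. Each log2 ratio was taken on deposited CPM + 1, so it does not use the rescaling. The added 1 CPM still ties it to the library total. In untreated and IFN-γ-treated cells, where Irf4 was low, it also makes the ratio of Irf4 to Irf8 less negative than that of the CPM themselves. The log2 ratio of Irf4 to Irf8, which can each pair with PU.1, averaged -5.09 ± 0.30 (SD, n = 3) in untreated cells, -1.77 ± 0.48 and -1.56 ± 0.21 under IL-4 at 2 h and 4 h, and -7.75 ± 0.06 and -8.61 ± 0.37 under IFN-γ. With both cytokines it was -3.30 ± 0.20 and -3.44 ± 0.50, between the values for each cytokine alone and above the untreated value. The log2 ratio of Irf1 to Irf2 averaged 0.71 ± 0.24 in untreated cells and 0.92 ± 0.12 and 1.78 ± 0.36 under IL-4. It was between 4.04 and 4.23 in the 4 groups with IFN-γ. The log2 ratio of Irf7 to Irf3 went from 1.29 ± 0.82 in untreated cells to 3.08 ± 0.74 under IFN-γ and 3.86 ± 0.66 under both at 4 h.

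Members deviated from their group means by replicate number, and not all in the same direction. For Irf1 and for Irf8, replicate 1 was the highest and replicate 2 the lowest library in 7 of 7 groups. Irf7 ran otherwise, with replicate 2 highest in 6 of 7 groups and replicate 3 lowest in 7 of 7. Irf3 was highest in replicate 3 in 7 of 7 groups, Irf5 and Irf2 in replicate 1 in 7 of 7, and Irf9 was lowest in replicate 3 in 7 of 7. On the log2 scale the mean deviation of replicate 2 was -0.36 for Irf1, -0.34 for Irf8 and 0.55 for Irf7. What the replicate numbers share is not given in the sources used here.

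**Figure D5:**
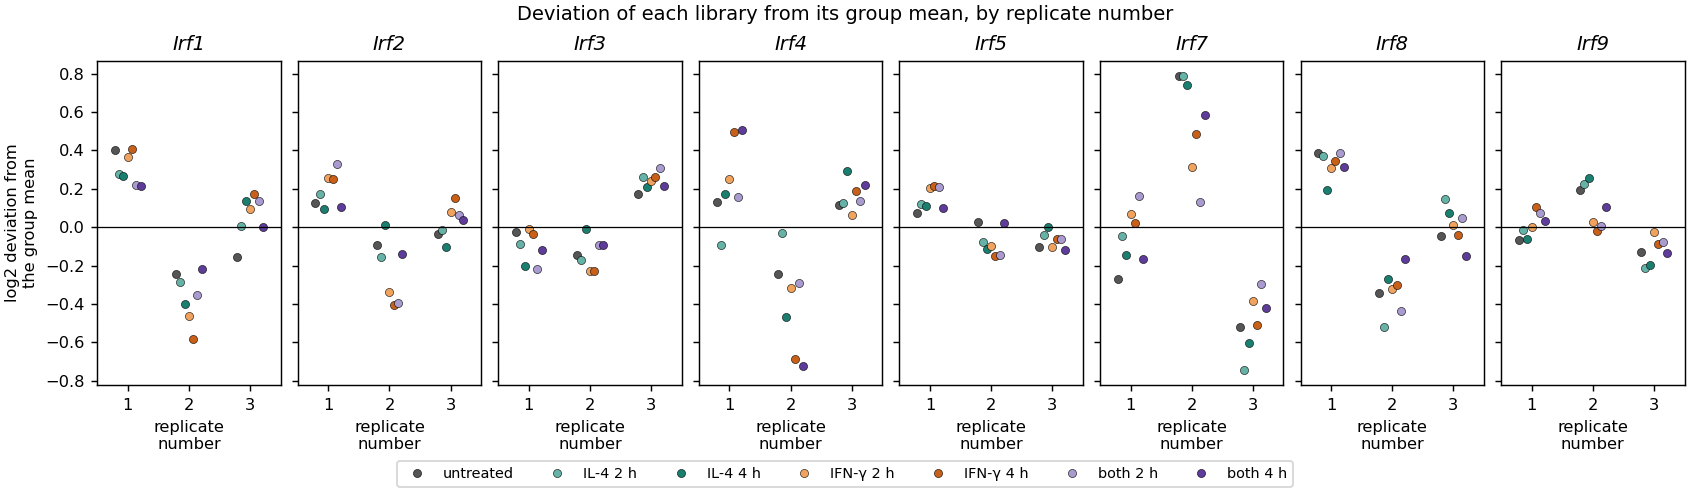
Log2 deviation of each library from its group mean against replicate number, for the 8 members; points are libraries, coloured by group. Replicate 2 lies below 0 in all 7 groups for Irf1 and Irf8 and above 0 in all 7 for Irf7.

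Genes that act upstream of the IRFs were read from fixed lists. Over all genes tested, 5.25% and 11.4% were higher under IL-4 at 2 h and 4 h, shares to set beside the list counts. The shares higher were 10.4% and 20.6% under IFN-γ and 12.4% and 22.1% under both. In the same order, 3.38% and 10.6%, 7.5% and 18.5%, and 9.85% and 20.7% of all genes were lower. The first list held 18 genes, all tested, for interferon and IL-4 receptors, JAKs, STATs and the regulators Socs1, Socs3, Usp18 and Pias1. Usp18 is also on the list of ISGF3 targets. Of the 18 genes, 3 were higher under IL-4 at each time, 8 and 10 under IFN-γ and 7 and 9 under both, and at most 3 were lower. With the block, 4 were higher at each time of IL-4, 12 and 14 under IFN-γ and 11 and 14 under both. At most 5 were then lower. The block called 2936 and 5390 of all 11380 genes under IL-4, 4374 and 7220 under IFN-γ and 4992 and 7622 under both, in either direction. Socs1, a feedback inhibitor of JAKs, went from 0.89 CPM in untreated cells to 86.2 CPM after 2 h of IL-4, 95.5 CPM after 2 h of IFN-γ and 147 CPM after 2 h of both. Il4ra, the IL-4 receptor chain, went from 219 CPM to 900.4 CPM after 2 h of IL-4 and to 1692 CPM after 2 h of IFN-γ. Of 25 sensors, adaptors and kinases that lead to IRF activation, 2 were higher at each time under IL-4, 8 and 14 under IFN-γ and 10 and 12 under both, and 0 and 2, 2 and 1, and 4 and 3 were lower. The IL-4 counts higher were near the share over all genes. Under IL-4 the deposited scale gave 5 and 6 higher and 0 lower, the block 4 and 4 higher and 7 and 10 lower. Tmem173, which encodes the adaptor STING, rose from 64.7 to 584 CPM at 4 h of IFN-γ (3.16 ± 0.21, limma adjusted p = 6.6e-09), and Zbp1, a nucleic acid sensor, rose by 3.87 ± 0.46 (adjusted p = 4.5e-06). The median log2 change of these 25 genes was -0.22 and -0.21 under IL-4, 0.24 and 0.82 under IFN-γ and 0.22 and 0.35 under both.

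Interferon genes, which IRF3 and IRF7 can induce, stayed near 0. None of 21 type I, II and III interferon genes passed the filter, 10 were at 0 in every library, and the highest value was 1.68 CPM, for Ifnb1. Added cytokine protein is not part of these RNA values.

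Partners of the IRFs on DNA included BATF factors. Of 18 partners and cofactors tested, 1 and 2 were higher under IL-4, 7 and 9 under IFN-γ and 6 and 10 under both, and 1 and 3, 1 and 2, and 3 and 2 were lower. Under IL-4 the shares higher were near those over all genes (5.25% and 11.4%). With the block, 5 and 2 were higher and 6 and 6 lower under IL-4. The block gave 7 and 13 higher under IFN-γ and 7 and 10 under both, with 1 and 3, and 6 and 4 lower. Against untreated replicate 1 alone, 2 and 6 were higher under IFN-γ and 4 and 5 under both. Batf3, which can join IRF4 or IRF8 on composite elements, averaged 1.17 CPM in untreated cells and 22.1 CPM after IL-4, 12.9 CPM after IFN-γ and 111 CPM after both at 4 h, rises of 3.43 ± 0.30, 2.59 ± 0.30 and 5.70 ± 0.30 (limma adjusted p = 4.5e-07, 4.0e-06 and 3.6e-10). Batf2, known as a partner of IRF1, went from 3.76 to 392 CPM after 4 h of IFN-γ (6.22 ± 0.36, adjusted p = 1.4e-09) and to 239 CPM after both (5.62 ± 0.36, adjusted p = 3.2e-09).

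Known targets of IRF1 and IRF8 were higher in nearly the whole list under IFN-γ. Of 23 tested, 19 and 21 were higher under IFN-γ and 18 and 21 under both at 2 h and 4 h, and 1 at each time under IL-4, where 2 and 3 were lower. The chemokine gene Cxcl9 averaged 2.39 CPM in untreated cells, 5453 CPM after 4 h of IFN-γ and 1977 CPM after 4 h of both. Gbp5, a guanylate-binding protein gene, rose by 6.07 ± 0.46 at 2 h of IFN-γ (limma adjusted p = 8.2e-08). The median log2 change of the 23 genes was 1.13 and 2.62 under IFN-γ, 0.93 and 2.45 under both and -0.09 and -0.03 under IL-4. Cxcl10 and Il15 were lower under IL-4 at 4 h, by -1.57 ± 0.31 and -0.81 ± 0.17 (adjusted p = 0.0013 and 0.0019), and Psmb10, an immunoproteasome subunit gene, was higher by 0.96 ± 0.11 (adjusted p = 6.3e-06). On the deposited CPM scale Il15 was not called (adjusted p = 0.21).

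For targets of ISGF3, the IRF9 complex, the number of calls depended on the fit. Of 20 tested, 6 and 12 were higher under IFN-γ and 5 and 11 under both, and under IL-4 0 were higher and 1, the antiviral gene Rsad2, was lower at 4 h (-2.36 ± 0.74, limma adjusted p = 0.029). When blocked, 18 and 20 were higher under IFN-γ, 17 and 19 under both, and 5 and 12 were lower under IL-4. On the deposited CPM scale, 9 and 12 were higher under IFN-γ, 8 and 13 under both and 1 and 1 under IL-4, where 0 were lower. Against untreated replicate 1 alone, 3 and 9 were higher under IFN-γ and 3 and 8 under both. Ifit2, which encodes an RNA-binding antiviral protein, rose by 3.25 ± 0.64 after 4 h of IFN-γ (adjusted p = 6.8e-04).

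Most of the tested genes of alternative activation that have been linked to IRF4 were higher under IL-4 with or without IFN-γ. Of 13 tested, 9 and 8 were higher under IL-4, 8 and 11 under both, and 2 and 6 under IFN-γ alone, with 1 lower at each time of IFN-γ. Against untreated replicate 1 alone the numbers higher were 5 and 7 under IL-4, 6 and 9 under both and 0 and 3 under IFN-γ. Pdcd1lg2, which encodes PD-L2, averaged 0.24 CPM in untreated cells, 80.7 CPM after 4 h of IL-4 and 220.2 CPM after 4 h of both. Retnla was listed at 0 in the untreated libraries and averaged 43.8 CPM after 4 h of IL-4. Egr2, a zinc-finger factor, was among the genes that were also higher after 4 h of IFN-γ alone (3.29 ± 0.85, limma adjusted p = 0.0052), and Pparg was lower at 2 h of it (-0.73 ± 0.20, adjusted p = 0.015; 0.27 on the deposited scale).

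Some markers of cells other than macrophages moved with IFN-γ. Irf4 and Irf8 also mark B cells and dendritic cells. The summed level of 8 dendritic cell markers was 137 to 226 CPM in untreated cells, 229 to 324 CPM at 4 h of IFN-γ and 233 to 357 CPM at 4 h of both, and 107 to 210.1 CPM under IL-4. At 2 h the sum was 161 to 203 CPM under IFN-γ and 134 to 199 CPM under both, within the untreated range except for the lowest library of both. Its most abundant gene was Bst2, which is also on the ISGF3 list, while Zbtb46 and Flt3 stayed at or below 0.73 and 1.31 CPM. Clec9a was called higher in all 4 groups given IFN-γ, most at 4 h of IFN-γ (0.37 to 3.18 CPM, 1.56, limma adjusted p = 4.1e-05), and Xcr1 at 2 h of IFN-γ (0.65 to 1.42 CPM, adjusted p = 0.0050). Bst2 and Siglech, also tested, were not called in those 4 groups on the rescaled values without the block. The sum of 6 B and plasma cell markers was 4.23 to 4.58 CPM in untreated cells and 8.46 to 17.2 CPM at 4 h of both, with Cd79b leading and Cd79a at or below 0.16 CPM. The T cell kinase gene Lck went from 0.36 to 10.9 CPM at 4 h of IFN-γ with Cd3e at or below 0.049 CPM. Cd4, the other T cell marker tested, was not called at 4 h of IFN-γ or of both without the block, and was lower with it. The 5 T cell markers measured, with Cd4 the highest, summed to 5.49 to 27.1 CPM in untreated cells. At 4 h of IFN-γ that sum was 12.8 to 32.9 CPM. The 6 neutrophil markers measured summed to 91.1 to 213 CPM in untreated cells and 96.2 to 329 CPM at 4 h of IFN-γ, and sums of 6 NK cell and 6 mast cell and basophil markers stayed at or below 0.28 and 1.12 CPM in every library. Other cell types' part in the member values was not tested, and in bulk RNA fewer cells of a type and less RNA per cell cannot be told apart.

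The genes whose levels were most like each member's over the 21 libraries were found by Pearson's r among 9016 genes with a mean of at least 5 CPM. The libraries share treatments and replicate numbers, so r is a description. For Irf1 these were Gbp7 (r = 0.996), Gbp5 (0.996) and Iigp1 (0.988), and for Irf8 Slamf8 (0.988), Lrch1 (0.983) and Icam1 (0.980). For Irf4 they were Cdh1, the E-cadherin gene (0.966), Myc (0.954) and Slc22a5 (0.951), and for Irf5 Phc2 (0.982), Slco3a1 (0.969) and Mtmr14 (0.966). Irf7 was most like Oas1a (0.955), Ube2l6 (0.952) and Tgm2 (0.947), and Irf2 most like Nuak2 (0.959), Sh3bp2 (0.955) and Zyx (0.952). Irf3 (Pank4, Atf6b and Slc35a2, 0.872 to 0.899) and Irf9 (Arhgap5 and Lims1, 0.876 and 0.871) had weaker nearest neighbours. Over the 7 group means instead, Gbp7, Cdh1 and Slamf8 stayed the nearest gene to Irf1, Irf4 and Irf8. The first-named genes of the other members fell in rank over those means. Nuak2 ranked 7 for Irf2, Pank4 223 for Irf3, Phc2 4 for Irf5, Oas1a 95 for Irf7 and Arhgap5 22 for Irf9.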

How the data were processed

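Reads per gene had been aligned with TopHat2 (2.1.0) to mm10/GRCm38, counted with HTSeq and turned into CPM with edgeR, per the submitters' processing notes, and the authors deposited 1 table of CPM for 21 polyadenylated RNA libraries. CPM steps gave whole reads for 100% of values, within 0.01 read, so counts were recovered from the deposited table for the edgeR alternative. Samples were grouped by title. CPM was rescaled by median ratios (factors 0.573 to 1.22). The 11380 genes that reached 1 CPM in 3 or more libraries entered tests on log2(CPM + 1) with limma 3.58.1 in R 4.3.3, with 7 group means, 14 residual degrees of freedom, 17 comparisons and Benjamini-Hochberg adjustment over those genes in each. Fold changes on this scale understate changes of low genes. The script was tested on simulated data.

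Replicate numbers paired the libraries: deviations from group means correlated at 0.54 to 0.951 (median 0.795) in 63 pairs with the same number and at -0.859 to 0.369 in 126 other pairs. The fit without the number is the main one. The block is given where it changes a member's call, and only in part for the gene lists and markers. Alternatives were deposited CPM, TMM factors, pseudocounts of 0.25 and 5, no filter, edgeR 4.0.16, the block, and leaving out replicates or single libraries. The lone untreated control and the block in edgeR were chosen after seeing the data. Named genes were the 8 members, at most 3 called genes with the largest change from each pathway list in each comparison with untreated cells, 3 nearest genes per member and 3 ratios; other list and marker genes named were chosen after their values were seen. Some genes that these rules name are not reported here. Members and lists were chosen with earlier results of these data known. Gene positions are GENCODE vM21 (GRCm38).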

Additional observations from a re-analysis of the deposited data

Results flagged for a closer look

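These results were singled out because a member's level differed between the 2 time points of the same treatment in limma (3 libraries a group, adjusted p under 0.05). Under IFN-γ, the 4 h level exceeded the 2 h level by 0.57 on the log2 scale for Irf2, 1.12 for Irf5 and 1.00 for Irf8. Under both cytokines, it did so by 1.06 for Irf4, 0.96 for Irf5 and 1.20 for Irf8. The 4 h libraries were all above the 2 h libraries in each of these except Irf2, where replicate 2 at 4 h (111 CPM) lay below replicate 1 at 2 h (119 CPM). Whether the step from 2 h to 4 h differed between IFN-γ and both was not tested. Groups of 3 libraries were not screened for single outlying libraries.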

How the results depend on the processing

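Each count below is of 8 members called by limma unless edgeR is named, and no member change called on the rescaled values without the block switched sign under the alternatives run; some changes called with the block alone did on the deposited scale, as given beside them. With the replicate number as a block, the members called went from 1 to 6 for IL-4 at 2 h, 2 to 6 for IL-4 at 4 h, 4 to 7 for IFN-γ at 2 h, 3 to 5 for both against IL-4 at 2 h, 1 to 3 and 2 to 4 for both against IFN-γ at 2 h and 4 h, 0 to 2, 3 to 7 and 3 to 8 for 4 h against 2 h under IL-4, IFN-γ and both, and 0 to 1 and 0 to 2 for the interactions at 2 h and 4 h. The replicate block in edgeR gave 6, 6, 7, 5, 3, 4, 2, 6, 8, 1 and 2 for the same 11 comparisons. Over all genes, the block in limma called 2936 and 5390 of 11380 for IL-4 at 2 h and 4 h. It called 4374 for IFN-γ at 2 h, and 329 and 1680 for the interactions at 2 h and 4 h. Comparisons outside these 11 moved less in proportion, and with the block each of them still gained member calls, given above. The replicate block on the deposited CPM scale gave 6 and 4 for IL-4 at 2 h and 4 h, 1 for 4 h against 2 h of IL-4 and 2 for each interaction. CPM as deposited, without the block, gave 3 and 4 for IL-4 at 2 h and 4 h, 1 for both against IFN-γ at 4 h and 1 for 4 h against 2 h of IFN-γ. Over all 11380 genes, the deposited scale called 1903, 4170, 698 and 915 in those comparisons, in the same order. The rescaled values gave 982, 2494, 1350 and 2016. TMM factors and edgeR each gave 2 for IL-4 at 2 h and 1 for 4 h against 2 h of IL-4. Untreated replicate 1 as the lone control gave 1 for IL-4 at 4 h, 2 for IFN-γ at 2 h and 3 for both at 2 h. Pseudocounts of 0.25 and 5 moved 0 and 1 of 136 member calls, and no filter 3. Leaving out a replicate number or a single library gave 1 to 3 and 1 to 2 members for IL-4 at 2 h and 4 h, 2 to 6 and 4 to 5 for IFN-γ, 3 to 6 and 6 to 6 for both, 1 to 5 and 4 to 7 for both against IL-4, 1 to 1 and 1 to 2 for both against IFN-γ, 0 to 2, 1 to 4 and 1 to 4 for 4 h against 2 h, 0 to 0 and 0 to 2 for the interactions, and 3 to 5 and 5 to 7 for IL-4 against IFN-γ. Leaving out a replicate number in all groups added 17 of 408 member calls, all of them without replicate 2, and removed 28. The causes of these moves were not tested. Ranks per kb differed for 24 of 56 member levels with the longest transcript. With 3 libraries a group, standard errors of member changes against untreated cells ran from 0.12 for Irf5 to 0.43 for Irf7, which limits what could be detected.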
